A study of Homo sapiens with 6 samples.

Results

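Small nucleolar RNAs (snoRNAs) guide ribose methylation and pseudouridylation of ribosomal RNA, and most are cut from the introns of host transcripts. The hosts described here are 10 long noncoding RNAs: DANCR, GAS5, SNHG1, SNHG3, SNHG4, SNHG5, SNHG7, SNHG8, SNHG12 and ZFAS1. The members are all probe sets, the groups of probes that read a transcript on the array, to which the platform annotation gives 1 of these names and no other gene. This rule found 7 of the 54613 probe sets that are no controls, for 4 of the 10 hosts: DANCR, GAS5, SNHG4 and ZFAS1. The other 6 hosts are annotated only together with other genes, and their transcripts were not measured separately here.

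Once the introns are removed, what is left of such a host has only short reading frames. Many of these spliced remainders are engaged by ribosomes and broken down by nonsense-mediated decay, a surveillance pathway that acts during translation. They are known as short-lived RNAs that accumulate when translation is stopped, with GAS5 as the textbook case. Several hosts also start with a 5′ terminal oligopyrimidine tract, a C followed by further pyrimidines, which they share with the messenger RNAs of ribosomal proteins and which ties translation to growth signals.

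RNA came from Kasumi-1, an established acute myeloid leukaemia line with the t(8;21) translocation, which creates the RUNX1-RUNX1T1 fusion. The vehicle group received vehicle for 24 h and the other group 20 nM homoharringtonine (HHT) for 24 h, an alkaloid that blocks translation elongation. Each group has 3 one-colour 3′ expression arrays, numbered 1 to 3. The labels name 1 cell line, 1 dose and 1 time, and whether the arrays stand for separate cultures is not given. The p-values below therefore describe the spread between these arrays, which may be technical. In a bulk RNA sample, fewer cells of a kind and less RNA per cell cannot be told apart.

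Values are log2 signals as deposited, so a difference of 1 is a doubling. Over all probe sets, pairs of arrays correlated at 0.917 to 0.935 within a group and 0.901 to 0.910 across groups. Array medians were 5.82 to 5.96 in vehicle and 5.53 to 5.77 in HHT. The 18 probe sets for hybridisation controls, which are added in fixed amounts, averaged 11.98 ± 0.0282 in vehicle and 11.70 ± 0.0598 in HHT (SD, n = 3). Their difference was -0.28, and each change is therefore also given under other scalings where that matters. All 6 measured myeloblast markers (KIT, CD34, RUNX1T1, MPO, ANPEP and PTPRC) passed the filter on low signal, with means of 7.70 to 14.83 in vehicle and 7.39 to 14.22 in HHT. Among them MPO went from 14.39 ± 0.0765 to 12.63 ± 0.198, CD34 from 9.20 ± 0.0437 to 8.03 ± 0.244 and PTPRC from 12.43 ± 0.0441 to 13.20 ± 0.0485. Of 6 markers of other cell types, all but KRT19 passed this filter too, so passing it does not separate the 2 kinds of marker. Among these, the epithelial adhesion molecule EPCAM was also high, at 13.69 ± 0.0216 in vehicle and 12.93 ± 0.0807 in HHT. The epithelial keratin KRT19 was at 2.69 ± 1.21 and 2.80 ± 0.836, and CD3E, MS4A1, HBB and COL1A2 had means of 4.56 to 6.46 in vehicle and 4.94 to 6.21 in HHT. The part of these markers in the results was not tested.

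The sequences around the starts of the 4 measured hosts are shown because a pyrimidine tract is read at the first bases of a transcript. They are RefSeq sequences on GRCh38.p14, 20 bases before to 30 bases after the annotated start, with the pyrimidine run in capitals.
DANCR, chr4:52712374-52712423, + strand: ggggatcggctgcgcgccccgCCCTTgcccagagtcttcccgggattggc
GAS5, chr1:173869016-173869065, - strand: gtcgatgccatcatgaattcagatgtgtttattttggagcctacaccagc
SNHG4, chr5:139274081-139274130, + strand: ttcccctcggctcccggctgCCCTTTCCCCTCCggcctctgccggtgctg
ZFAS1, chr20:49278622-49278671, + strand: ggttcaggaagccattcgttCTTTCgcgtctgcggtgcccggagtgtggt
The run counted was a C within 5 bases of the annotated start that opens at least 5 pyrimidines in a row, a rule set after the starts were seen. SNHG4 had the longest of these 3 runs, 13 bases from base 1, ZFAS1 had 5 bases from base 1, and DANCR had 5 bases from base 2. No such run was found in the window of GAS5, for which the table holds 1 start, not known to be its main one. Over all 10 hosts 7 had one, DANCR, SNHG4, SNHG5, SNHG7, SNHG8, SNHG12 and ZFAS1, against 21.1% of the 27305 promoters in the table. As the rule was set on these same starts, the comparison is no test of an excess. The run opened at base 1 in SNHG5, but before the start in SNHG7 and SNHG12 (base -1) and in SNHG8 (base -5). The MYC-type E-box CACGTG, which reads the same on both strands, was in 1 of the 10 promoters of 300 bases, that of SNHG7, against 7.43% of all promoters. MYC, a factor known to bind this motif, fell by 4.40 (SE 0.0958), from 14.15 ± 0.0123 to 9.75 ± 0.220 (SD, n = 3), and its part in the hosts' changes was not tested. These matches describe the letters only. The run was present both in hosts whose probe sets fell and in ZFAS1, most of whose probe sets rose.

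All 7 probe sets of the 4 hosts changed, in both directions. DANCR fell by 2.99, GAS5 fell by 1.76 and SNHG4 fell by 1.83, while 3 of the 4 ZFAS1 probe sets rose by 0.39 to 0.43 and the other fell by 1.63. A change here means an adjusted p under 0.05 from limma, with Benjamini-Hochberg adjustment over all 32768 probe sets that passed the filter. All 7 passed it, and in all 7 the vehicle and HHT arrays did not overlap. Changes were common on these arrays: 46.3% of all probe sets were called, 23.0% higher and 23.3% lower, and groups did not overlap in 55.9%. Counted as genes, each by its brightest single-symbol probe set, 3 of the 4 hosts fell and 1 rose, where 53.8% of all genes were called. Passing the threshold is thus not particular to these hosts.

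**Figure D1:**
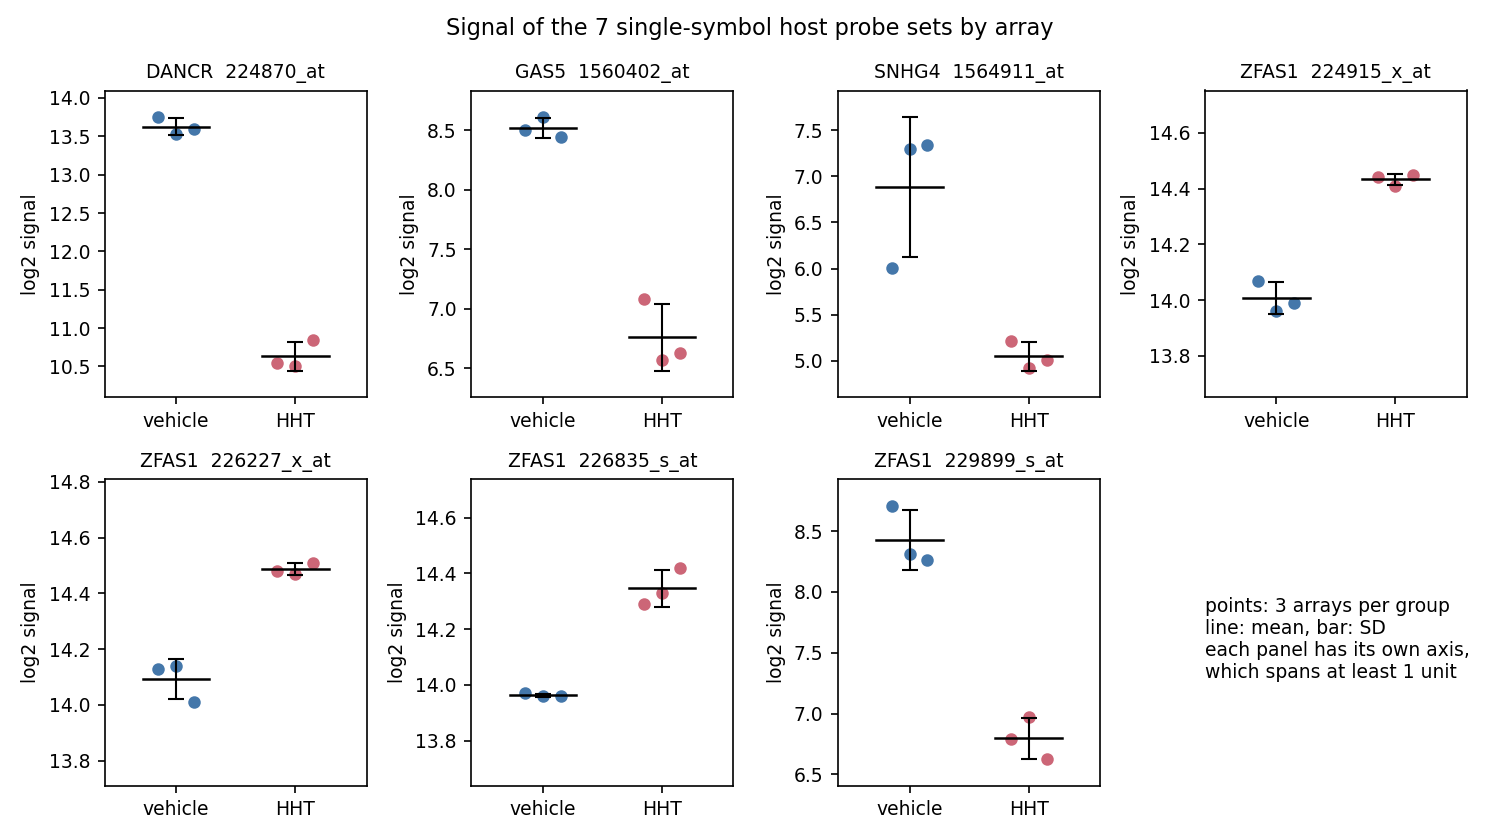
Log2 signal (vertical axis, a separate scale in each panel) of the 7 single-symbol host probe sets on the 3 vehicle and 3 HHT arrays, with points for arrays, a line for the mean and a bar for the SD. The groups are apart in every panel, with HHT lower in DANCR, GAS5, SNHG4 and ZFAS1 229899_s_at and higher in the other 3 ZFAS1 panels.

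DANCR is a long noncoding RNA known for holding progenitor cells in an undifferentiated state, and its introns carry an H/ACA snoRNA. Its probe set 224870_at read 13.75, 13.53 and 13.60 on the vehicle arrays and 10.55, 10.50 and 10.84 on the HHT arrays. The arrays of each group lay close together, and the groups were far apart. The means were 13.63 ± 0.113 and 10.63 ± 0.183 (SD, n = 3). DANCR fell by 2.99 (SE 0.0936, 95% interval -3.20 to -2.79, limma adjusted p = 1.47e-08), a 7.96-fold lower signal. Among the 12763 genes tested with both group means above the filter level of 4.80, DANCR had the 6th largest decrease. Its change was -2.99 to -2.71 over 4 scalings of the arrays.

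The genes most like DANCR were looked for over the 6 arrays, as the smallest Euclidean distance after each gene's vehicle mean was subtracted. Of 12762 genes compared, the 5 closest were PFAS (distance 0.295), INSIG1 (0.340), TMEM97 (0.352), FABP5 (0.373) and SCD (0.397). PFAS makes purines, INSIG1 is a sterol-regulated membrane protein, TMEM97 is a sterol-related membrane protein, FABP5 carries fatty acids and SCD desaturates them. Their log2 changes ran from -2.93 (INSIG1) to -2.85 (SCD). In PFAS the vehicle arrays read 11.55, 11.35 and 11.41 and the HHT arrays 8.52, 8.55 and 8.55. The measure takes the size of the change and the spread together, and with only 2 groups it is mostly set by the size of the change. None of the 5 is a snoRNA host in the lists used here.

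GAS5, named for its rise in growth-arrested cells, carries a cluster of C/D box snoRNAs and its RNA can occupy the glucocorticoid receptor. Its only single-symbol probe set, 1560402_at, read 8.50, 8.61 and 8.44 in vehicle and 7.08, 6.57 and 6.63 in HHT. HHT replicate 1 was the highest of the HHT arrays and still well below every vehicle array. The means were 8.52 ± 0.0900 and 6.76 ± 0.281 (SD, n = 3). The signal fell by 1.76 (SE 0.181, 95% interval -2.16 to -1.36, limma adjusted p = 1.74e-05), with -1.76 to -1.47 over the 4 scalings.

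A further 4 probe sets list GAS5 together with 8 of its snoRNAs, so their signal is given by probe set and assigned to no single gene. They did not move together. Probe sets 224741_x_at and 224841_x_at read 14.06 to 14.22 and 14.00 to 14.15 in vehicle, and 14.11 to 14.18 and 14.08 to 14.15 in HHT. The groups overlapped in both, the differences were 0.00 (95% interval -0.12 to 0.12) and 0.05 (95% interval -0.07 to 0.17), and neither was called. In contrast, 227517_s_at read 13.06, 13.06 and 13.13 in vehicle and 11.71, 11.72 and 11.76 in HHT, and 228238_at read 12.09, 11.92 and 12.00 against 10.06, 9.93 and 10.14. The first fell by 1.35 (SE 0.0539, limma adjusted p = 4.23e-08) and the other fell by 1.96 (SE 0.0781, limma adjusted p = 4.23e-08).

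Set against the mean of the 2 probe sets ending in x_at on each array, 227517_s_at shifted by -1.38 and 228238_at by -1.98 from vehicle to HHT. Both groups were apart in both contrasts (exact permutation p = 0.1, two-sided, adjusted p = 0.1 over 4 such contrasts chosen after the values were seen, and the smallest that 3 against 3 allows). The suffix x_at marks probe sets with probes that may also bind other transcripts. The 5 probe sets that list GAS5 thus differed, and the level of GAS5 RNA as a whole is not settled by them. With other scalings the x_at pair was higher in HHT, 0.24 to 0.37 for 224741_x_at and 0.29 to 0.42 for 224841_x_at, called in all but the former with equal medians (adjusted p = 0.0721 by limma).

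SNHG4 carries an H/ACA snoRNA and shares its locus with MATR3, which encodes a nuclear matrix protein. Its only single-symbol probe set, 1564911_at, read 6.01, 7.30 and 7.34 in vehicle and 5.22, 4.92 and 5.01 in HHT. Vehicle replicate 1 stood below the other two vehicle arrays, nearer to the HHT arrays than to them. The means were 6.88 ± 0.760 and 5.05 ± 0.150 (SD, n = 3), the HHT mean close to the filter level of 4.80. The signal fell by 1.83 (SE 0.405, 95% interval -2.73 to -0.93, limma adjusted p = 0.0035). It was -1.60 to -2.27 when 1 array was left out, called each time. With a pseudocount of 64 added to the signal, which damps changes of dim probe sets, it was -0.94 and still called (limma adjusted p = 0.00342).

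Another 9 probe sets list SNHG4 with MATR3 and were assigned to neither. Of these 7 passed the filter, 6 fell and 1 was not called, where 23.3% of all probe sets fell and 23.0% rose. Changes over all 9 ran from -2.08 to 0.40. Probe sets 1564906_at and 1564907_s_at were nearest to the SNHG4 probe set in size, with changes of -1.88 (SE 0.324) and -2.08 (SE 0.370), or -0.97 and -1.15 with the pseudocount. The former read 7.29, 6.62 and 7.15 in vehicle and 4.83, 5.18 and 5.40 in HHT. The 4 that fell least, by 0.23 to 0.27, changed by about as much as the hybridisation controls.

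ZFAS1 lies head to head with the gene of the zinc-finger protein ZNFX1 and carries C/D box snoRNAs. It had 4 single-symbol probe sets, and they split. Probe set 226227_x_at read 14.13, 14.14 and 14.01 in vehicle and 14.48, 14.47 and 14.51 in HHT, and every HHT array was above every vehicle array. It rose by 0.39 (SE 0.0515, 95% interval 0.28 to 0.51, limma adjusted p = 0.000104), from 14.09 ± 0.0748 to 14.48 ± 0.0209 (SD, n = 3). With other scalings its rise was 0.63 to 0.76. Probe set 224915_x_at rose by 0.43 (SE 0.0481), from 14.07, 13.96 and 13.99 to 14.44, 14.41 and 14.45. Probe set 226835_s_at rose by 0.39 (SE 0.0502), from 13.97, 13.96 and 13.96 to 14.29, 14.33 and 14.42. These 3 agreed in direction and closely in size, at 1.31-fold to 1.34-fold. Of them 226227_x_at and 224915_x_at carry the suffix x_at, so their probes may also bind other transcripts.

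The fourth ZFAS1 probe set went the other way. Probe set 229899_s_at read 8.71, 8.31 and 8.26 in vehicle and 6.79, 6.97 and 6.63 in HHT. It fell by 1.63 (SE 0.184, 95% interval -2.04 to -1.23, limma adjusted p = 3.31e-05), a 3.10-fold lower signal. Its value minus the mean of the other 3 was -5.59 ± 0.217 in vehicle and -7.63 ± 0.199 in HHT, a shift of -2.03. The two-sided exact permutation p = 0.1 is as low as 6 arrays can give. As the probe set was singled out by the direction of its own change, this is no test of the split. Both directions held under the 4 scalings, with 0.39 to 0.76 for 226227_x_at and -1.35 to -1.63 for 229899_s_at. The mean of the 4 probe sets differed by -0.11 and was not called (limma adjusted p = 0.147), so a single value for ZFAS1 hides the split.

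The measured hosts were also set against DANCR on each array. The per-array difference DANCR minus GAS5 moved from 5.11 ± 0.174 in vehicle to 3.87 ± 0.378 in HHT, a shift of -1.24. Against SNHG4 the shift was -1.16, from 6.74 ± 0.868 to 5.58 ± 0.248. It was -0.66 without vehicle replicate 1 and -2.01 with a pseudocount of 64. Against ZFAS1 226227_x_at the shift was -3.38, from -0.47 ± 0.126 to -3.85 ± 0.162. The groups did not overlap in any of the 3, and each gave an exact permutation p = 0.1 (two-sided, adjusted p = 0.1 over 3 comparisons), the smallest that 3 against 3 allows. These comparisons therefore cannot pass a threshold of 0.05, and only their sizes are given.

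The remaining 6 hosts were seen only through probe sets that also list their snoRNAs. With those of GAS5 there are 13 such probe sets, of which 3 rose, 7 fell and 3 were not called, with a median change of -0.30. Over all probe sets 23.0% rose and 23.3% fell. The annotation does not say which of the listed RNAs a probe set reads. The values are therefore those of the probe sets.

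For SNHG12, whose introns carry H/ACA snoRNAs, the 3 probe sets split as those of ZFAS1 did. Probe set 223774_at read 10.02, 9.71 and 9.86 in vehicle and 11.09, 11.12 and 11.15 in HHT, and rose by 1.26 (SE 0.0883, limma adjusted p = 1.23e-06). Probe set 223773_s_at rose by 0.84 (SE 0.0667), from 11.22, 11.07 and 11.07 to 12.01, 11.96 and 11.92. Probe set 228990_at fell by 2.41 (SE 0.152, limma adjusted p = 6.25e-07), from 9.84, 9.91 and 9.76 to 7.26, 7.26 and 7.77. Set against the mean of 223773_s_at and 223774_at it shifted by -3.45, from -0.65 ± 0.158 to -4.11 ± 0.299. The two-sided exact permutation p = 0.1 is again the lowest possible. This contrast, too, was chosen by the direction of the changes and is no test of the split. The sign of each of the 3 was the same under all 4 scalings.

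The probe set listing SNHG8, 225220_at, read 13.21, 13.10 and 12.93 in vehicle and 13.62, 13.71 and 13.77 in HHT. It rose by 0.62 (SE 0.0738, limma adjusted p = 4.73e-05), and by 0.62 to 0.91 over the 4 scalings. The probe set listing SNHG3, 215011_at, read 8.78, 8.64 and 8.69 in vehicle and 7.03, 7.04 and 6.99 in HHT. It fell by 1.68 (SE 0.138, limma adjusted p = 3.45e-06), with the arrays of each group close together. SNHG3 lies next to RCC1, a regulator of the GTPase Ran that can be transcribed from the same region, and RCC1 itself fell by 1.24 (SE 0.0760), from 11.37 ± 0.101 to 10.13 ± 0.0463.

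The 2 probe sets listing SNHG7 differed from each other. Probe set 1552729_at fell by 1.13 (SE 0.251, limma adjusted p = 0.00355, or -0.74 with the pseudocount of 64), from 7.68, 6.94 and 7.66 to 6.40, 6.28 and 6.20. Probe set 229050_s_at read 12.01, 11.99 and 11.87 in vehicle and 11.95, 11.93 and 11.93 in HHT, a difference of -0.03 (95% interval -0.16 to 0.11) that was not called. That probe set was higher in HHT by 0.21 with equal medians and by 0.26 once the hybridisation controls were made equal, where it was called (limma adjusted p = 0.0154). The difference between these 2 was not tested.

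SNHG1 and SNHG5 carry C/D box snoRNAs, SNHG1 one of the larger sets. The probe set listing SNHG1, 224610_at, read 13.91, 13.73 and 13.69 in vehicle and 13.46, 13.46 and 13.51 in HHT. The probe set listing SNHG5, 225155_at, read 14.33, 14.17 and 14.13 against 13.89, 13.92 and 13.91. Both fell by 0.30 as deposited (limma adjusted p = 0.0025 and 0.00147), about the shift of the hybridisation controls. With medians or hybridisation controls made equal they lay between -0.06 and -0.02, and after quantile normalization at 0.06 and 0.07, and were called under none of these.

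**Figure D2:**
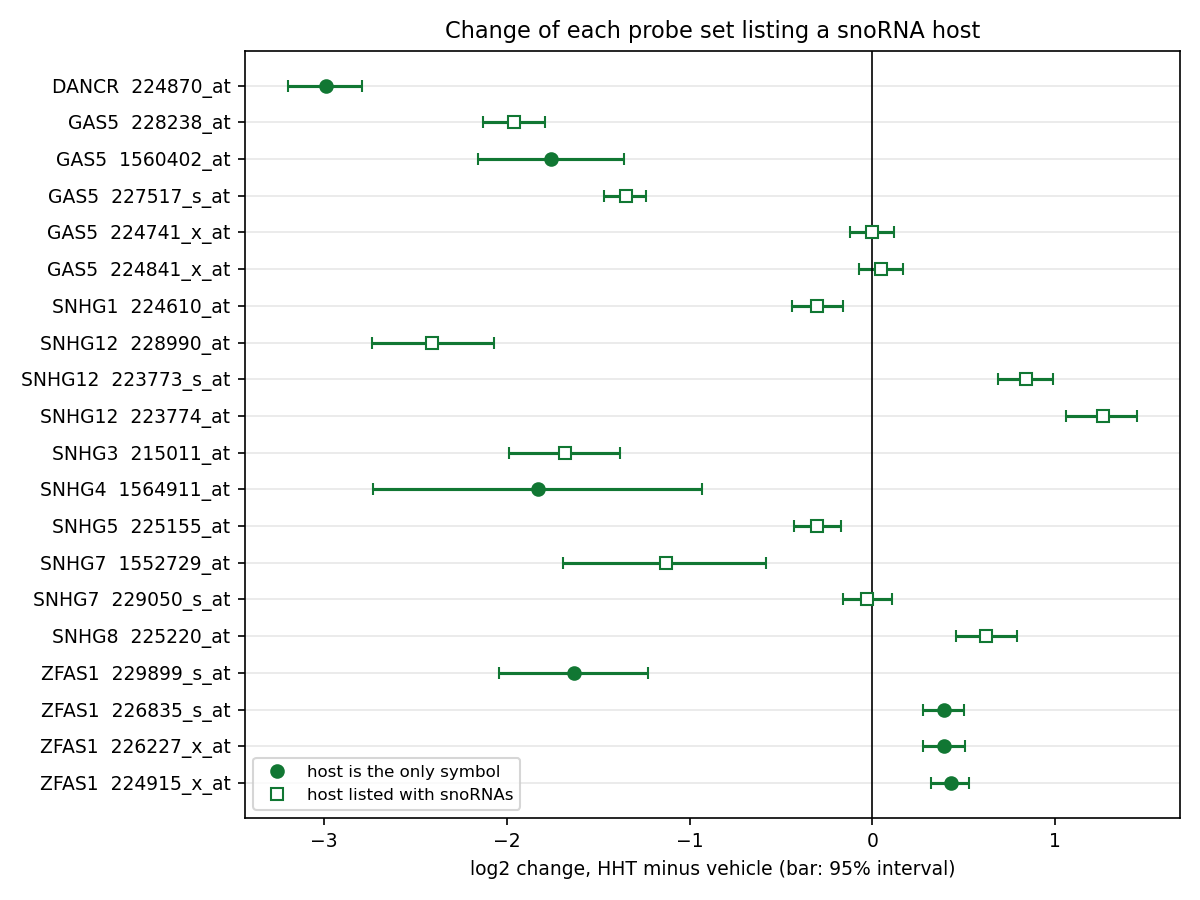
Log2 change from vehicle to HHT (horizontal axis) with its 95% interval for the 7 single-symbol probe sets (filled circles) and the 13 that list a host with snoRNAs (open squares). DANCR is lowest at -2.99, and probe sets naming GAS5, SNHG12 or ZFAS1 differ widely within a host. The GAS5 pair ending in x_at lies close together, as do the rising ZFAS1 probe sets.

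**Figure D3:**
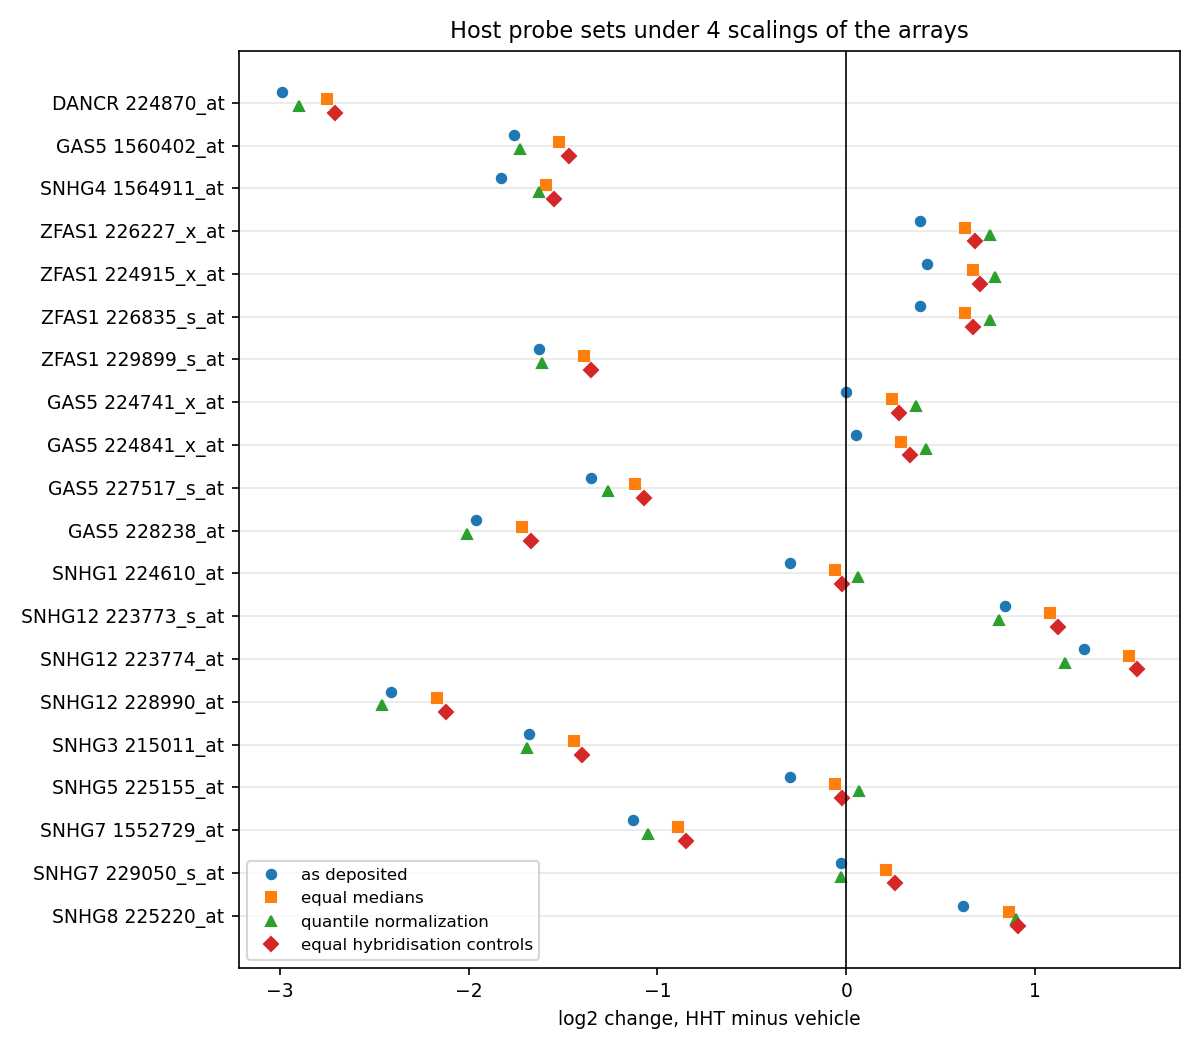
Log2 change from vehicle to HHT (horizontal axis) of the 20 host probe sets under 4 scalings of the arrays, with a marker for each scaling. DANCR stays between -2.99 and -2.71 and the 3 high ZFAS1 probe sets stay above 0, while the probe sets listing SNHG1 and SNHG5 move from -0.30 to about 0.

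Other noncoding hosts, outside the 10, moved both ways. Of 20 listed, 7 were tested, and 2 rose, 2 fell and 3 were not called, where 29.6% of all 13572 genes rose and 24.2% fell. The share in each direction, 28.6%, is close to that background. SNHG19 fell by 0.91 (SE 0.0958), from 10.26, 10.27 and 10.32 to 9.53, 9.22 and 9.36, and SNHG17 fell by 0.49 (SE 0.0837), at -0.21 and not called with the hybridisation controls made equal (limma adjusted p = 0.111). EPB41L4A-AS1 rose by 0.60 (SE 0.0650), from 12.25, 12.36 and 12.16 to 12.87, 12.79 and 12.91, and SNHG32 rose by 0.30 (SE 0.0592). MEG3, an imprinted transcript, differed by -0.14 (SE 0.461) at a vehicle mean of 5.46 and was not called.

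Protein-coding snoRNA hosts were lower as deposited, 21 of the 25 tested (84.0%), with 1 higher (4.0%) and a median of -0.38 against 0.00 for all genes, of which 24.2% fell and 29.6% rose. Many of their changes were near the shift between scalings: 7 fell once medians were made equal, 8 once the hybridisation controls were, and 11 after quantile normalization, where 12.7%, 12.8% and 22.9% of all genes fell. NCL, the nucleolar protein nucleolin, fell by 1.35 (SE 0.0661), from 14.11, 14.11 and 14.21 to 12.74, 12.93 and 12.72. The nuclear import receptor IPO7 fell by 1.31 (SE 0.0561) and the mitochondrial chaperone HSPA9 by 0.98 (SE 0.0616). TBRG4 fell by 1.32 (SE 0.364), but was not called without vehicle replicate 2 or 3 (limma adjusted p = 0.0566 and 0.0554), and was at -0.75 with a pseudocount of 64. AP1G1, an adaptor of vesicle transport, was the host that rose, by 0.35 (SE 0.0812, with 2 hosts higher when vehicle replicate 3 or HHT replicate 2 was left out), and PRRC2A differed by -0.26 (SE 0.129) and was not called.

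The proteins that package and mature snoRNAs were also mostly lower as deposited. Of 19 listed, 17 were tested, as the core proteins NOP56 and DKC1 had no single-symbol probe set. Of those tested, 12 fell (70.6%) and 4 rose (23.5%), with a median of -0.38, where 24.2% of all genes fell and 29.6% rose. Once medians were made equal 5 fell, against 12.7% of all genes, and 7 once the hybridisation controls were, against 12.8%. After quantile normalization 10 fell, against 22.9%. Of the C/D box core, the methyltransferase fibrillarin (FBL) fell by 0.49 (SE 0.0483), NOP58 by 0.75 (SE 0.0647) and SNU13 by 0.38 (SE 0.0681). FBL was not called with equal medians (-0.25, limma adjusted p = 0.0583), nor was SNU13 there (-0.14) or with equal hybridisation controls (-0.10). Of the H/ACA core, GAR1 fell by 0.73 (SE 0.0755), NHP2 by 0.32 (SE 0.0591) and NOP10 by 0.23 (SE 0.0757). Neither NHP2 (-0.08 to -0.02) nor NOP10 (-0.06 to 0.05) was called under any of the 3 other scalings, and NOP10 was also not called without vehicle replicate 1 (-0.18), vehicle replicate 2 (-0.24) or HHT replicate 2 (-0.17). NOLC1, a chaperone of snoRNA particles, fell by 1.40 (SE 0.0859), from 12.40, 12.30 and 12.43 to 10.78, 11.09 and 11.05. Assembly factors moved both ways. RPAP3 rose by 0.93 (SE 0.0673), ZNHIT3 by 0.67 (SE 0.0737), NUFIP1 by 0.31 (SE 0.110) and the ATPase RUVBL1 by 0.17 (SE 0.0553). As deposited, RUVBL2 fell by 0.55 (SE 0.0581), PIH1D1 by 0.54 (SE 0.0718) and SHQ1 by 0.54 (SE 0.0772). NAF1 fell by 0.56 (SE 0.159) and TGS1 by 0.25 (SE 0.0717), the latter about the shift of the hybridisation controls. For RUVBL2, PIH1D1, SHQ1, NAF1 and TGS1 no values under other scalings are given here. ZNHIT6 differed by 0.03 (SE 0.0590) and was not called. NUFIP1 and RUVBL1 both lost their call without vehicle replicate 2 (0.24 and 0.18) and without HHT replicate 3 (0.27 and 0.16), which left 2 that rose. NUFIP1 was also not called without vehicle replicate 1 (0.34) or HHT replicate 1 (0.25), or after quantile normalization (0.20), and RUVBL1 without HHT replicate 2 (0.18).

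Factors of nonsense-mediated decay and of the decapping and decay steps after it moved both ways. Of 15 tested, 8 rose (53.3%), 2 fell (13.3%) and 5 were not called, with a median of 0.49, where 29.6% of all genes rose and 24.2% fell. Once medians were made equal 10 rose, against 37.3% of all genes, and 11 once the hybridisation controls were, against 41.6%. After quantile normalization 8 rose, against 29.8%. XRN1, the exonuclease that degrades decapped RNA, rose by 1.43 (SE 0.0628), from 11.08, 11.12 and 10.99 to 12.50, 12.44 and 12.54. The core factor UPF2 rose by 1.08 (SE 0.0541), the endonuclease SMG6 by 1.30 (SE 0.324), and the decapping proteins DCP2 by 0.81 (SE 0.0613) and DCP1A by 0.75 (SE 0.0688). The helicase UPF1, which drives the pathway, differed by 0.01 (SE 0.0796) and SMG5 by 0.00 (SE 0.110), neither called. The exon junction helicase EIF4A3 fell by 1.21 (SE 0.0691), its partner RBM8A differed by -0.12 (SE 0.0635) and was not called, and DHX34 fell by 0.75 (SE 0.240). DHX34 was not called without vehicle replicate 1 (-0.71) or 2 (-0.64), without HHT replicate 1 (-0.71) or 3 (-0.60), with equal medians (-0.51) or with equal hybridisation controls (-0.47), which left 1 factor lower. With a pseudocount of 64 SMG6 was at 0.62, and with equal hybridisation controls UPF1 was higher by 0.29 (limma adjusted p = 0.0211).

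Protein-coding transcripts known as targets of nonsense-mediated decay moved both ways, with 9 of 19 higher (47.4%), 4 lower (21.1%) and 6 not called, and a median of 0.16. Over all genes 29.6% rose and 24.2% fell, close to the share of the targets that fell. With equal medians 11 targets were higher, and 11 after quantile normalization, where 37.3% and 29.8% of all genes rose. With equal hybridisation controls 13 were higher, against 41.6%. The list shares UPF1, UPF2, SMG5 and SMG6 with the factors above. UPP1, a uridine phosphorylase, rose by 1.82 (SE 0.257), from 6.02, 5.49 and 5.39 to 7.43, 7.47 and 7.47. GABARAPL1, of the autophagy machinery, rose by 1.68 (SE 0.307), DDIT3 by 1.16 (SE 0.120) and GADD45A by 0.53 (SE 0.0675). With a pseudocount of 64 UPP1 was at 1.07 and GABARAPL1 at 0.97, both still called. TRIB3 fell by 1.32 (SE 0.0874) and the cystine transporter SLC7A11 by 1.09 (SE 0.0916). The transcription factor ATF4 differed by -0.15 (SE 0.0636), not called as deposited and at 0.21 after quantile normalization (limma adjusted p = 0.0205).

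**Figure D4:**
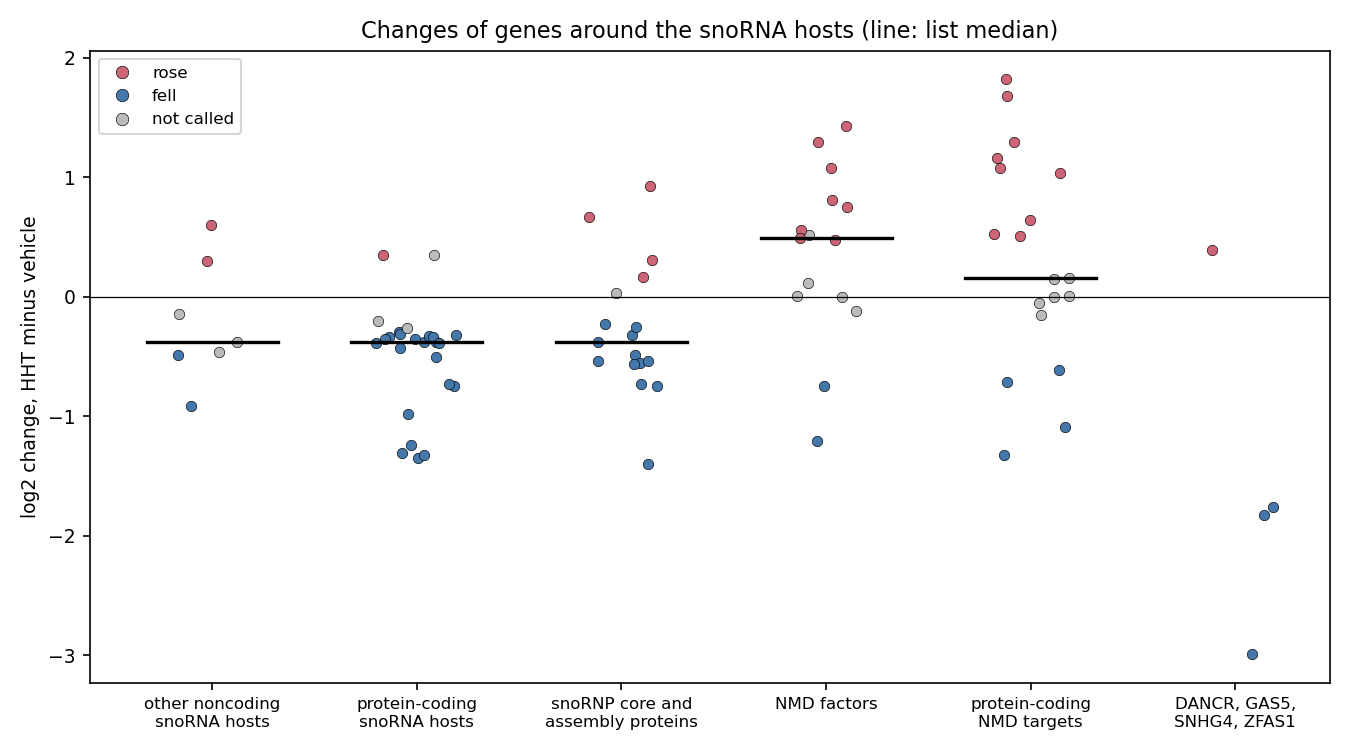
Log2 change from vehicle to HHT (vertical axis) of each tested gene of 5 lists and of the representative probe sets of DANCR, GAS5, SNHG4 and ZFAS1, coloured by call, with a line at each list's median. DANCR, GAS5 and SNHG4 lie below all genes of the 5 lists, and the factors of nonsense-mediated decay have the highest median, 0.49.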

How the data were processed

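The authors deposited 1 log2 signal per probe set and array, for 54675 probe sets. The submitters' processing notes name MAS5 for these values. Neither its version nor any build is given in the sources used here. The trimmed mean of the antilog signals was 500.06 to 500.07 on all arrays, and no 2 arrays were identical. No detection calls were used.

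The 62 control probe sets were kept out, and of the others the dimmest 40%, by mean over the 6 arrays, were filtered (level 4.80). HHT was set against vehicle in limma (version 3.58.1, under R 4.3.3), using lmFit and eBayes with a variance trend and no covariate, and called at an adjusted p under 0.05. The test was tried on simulated data. The platform annotation gave 41091 probe sets 1 symbol, 1801 several and 11721 none. For 41037 of those with 1 symbol, the symbol was looked up by Entrez ID, whether or not it differed. A gene is represented by its single-symbol probe set of highest mean. Differences between probe sets were tested by exact permutation of the arrays. With 3 arrays per group, the number of arrays limits the precision.

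Named genes are the hosts with a probe set, for each list the 2 called genes with the largest change and the brightest gene not called, and the 5 genes nearest to DANCR. Other list members were named after their values were seen. The members and lists were chosen with earlier results of these data known. Alternatives were equal medians, quantile normalization, equal hybridisation controls, a pseudocount of 64, no filter and a filter of 60%, no variance trend, a replicate block, the mean of probe sets and leaving out each array.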

Additional observations from a re-analysis of the deposited data

How the results depend on the processing

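The falls of DANCR, GAS5 and SNHG4 kept their sign and call in each alternative that gave a value, as did the rise of ZFAS1 226227_x_at except in the mean of its probe sets (-0.11), where 0 hosts rose. SNHG4 did not pass the 60% filter. Leaving out 1 array gave -3.10 to -2.93 for DANCR, -1.92 to -1.66 for GAS5, -2.27 to -1.60 for SNHG4 and 0.35 to 0.42 for ZFAS1. Counting the 13 probe sets that list a host with snoRNAs beside the 7 single-symbol ones, 6 rose and 11 fell. This alternative was added after the annotation was seen. Over all probe sets 23.0% rose and 23.3% fell. The 11 include the probe sets listing SNHG1 and SNHG5, both at -0.30 as deposited. Neither was called with equal medians, quantile normalization or equal hybridisation controls. The other scalings moved the median of all genes to 0.24 (equal medians), 0.05 (quantile normalization) and 0.28 (equal hybridisation controls), and genes that rose from 55.1% of calls to 74.7%, 56.5% and 76.4%. Protein-coding hosts that fell numbered 7, 11 and 8 under these, and those that rose 2 with the replicate block and with either medians or hybridisation controls made equal, and 1 to 2 without an array. Particle proteins that fell numbered 5 with equal medians, or 7 with equal hybridisation controls, and those that rose 2 without a variance trend and 2 to 4 without an array. Decay factors that fell numbered 1 when medians or hybridisation controls were made equal, and 1 to 2 without an array. Other noncoding hosts that fell numbered 1 with equal hybridisation controls.

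Signs turned mostly in genes not called. With equal medians these were NOP10 (0.01, called as deposited), MEG3 (0.10), RBM8A (0.12), ATF4 (0.09), 224741_x_at (0.24) and 229050_s_at (0.21). After quantile normalization they were UPF1 (-0.11), SMG5 (-0.10), MEG3 (0.11), ZNHIT6 (-0.01), ATF4 (0.21), 224741_x_at (0.37), 224610_at (0.06) and 225155_at (0.07). With equal hybridisation controls they were NOP10 (0.05), MEG3 (0.15), PRRC2A (0.02), RBM8A (0.16), ATF4 (0.14), 224741_x_at (0.28) and 229050_s_at (0.26). Leaving out 1 array gave -0.41 to 0.21 for MEG3, 0.00 at the lowest for ZNHIT6 and UPF1, -0.08 to 0.08 for SMG5, and -0.04 to 0.04 for 224741_x_at. The cause of these differences was not tested.

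The replicate numbers pair no arrays by the labels, and deviations of same-numbered arrays correlated at 0.0655, -0.0141 and 0.0491. With the replicate block DANCR stayed at -2.99 (limma adjusted p = 3.14e-08), and 4 host probe sets fell and 3 rose, as without it.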
